A study of Mus musculus with 238 samples.

Results

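The olfactory bulb receives the axons of the smell-sensing neurons of the nose and passes their signal on to the cortex. Its mitral and tufted cells are the output neurons, and its granule and periglomerular cells are inhibitory interneurons, some of which are replaced throughout life by newborn cells that migrate in from the subventricular zone. The libraries described here are the 7 olfactory bulb libraries of a plasma experiment on male C57BL/6JN mice of 19 months, 1 library per mouse, out of 238 libraries in the series. In 3 mice (73, 77 and 81) young mouse plasma (YMP) was injected behind the eye, and 4 mice (72, 76, 80 and 84) received PBS, a saline buffer, by the same route. The same mice gave 98 libraries from 15 brain regions in all. A second experiment of the series compared dietary restriction (aDR) with free feeding (AL) in female mice of the same age and strain, and its 9 bulb libraries serve here as values from other animals. The labels say nothing of the donors' plasma, the number of injections or the time from the last injection to sampling.

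Blood of young animals is studied as a source of factors that act on the aged brain. Plasma can carry steroid hormones and proteins to the brain, and cells answer such signals and other demands through well-known gene programmes. Glucocorticoids bind a receptor that switches on genes such as Sgk1, Tsc22d3 and Fkbp5, heat shock factors raise the cytosolic chaperones, and the unfolded protein response raises the chaperones of the endoplasmic reticulum. These programmes, the protein-making machinery and the cell types of the bulb were described as gene lists.

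Depth differed widely. Library totals were 3.34, 10.5, 14.1 and 7.83 M counts (M, mega) for PBS mice 72, 76, 80 and 84, and 0.606, 3.59 and 11.5 M for YMP mice 73, 77 and 81. The library of mouse 73 was the shallowest of the series, with a count for 13236 genes against 15212 to 17597 in the other bulb libraries, and the main results are given with and without it. A count of 0 in that library allows a level of up to 4.95 CPM (3 counts, counting error only), against at most 0.909 CPM in the others. CPM are counts scaled to a common library total of 1 M. Its log2 CPM correlated across genes at 0.924 to 0.944 with the other libraries, which correlated among themselves at 0.975 to 0.992. The bulb label was checked on 9 markers against 49 libraries of 7 other regions of the same mice. In 8 of the 9 (Tbx21, Eomes, Cdhr1, Doc2g, Th, Sp8, Tshz1 and Synpr) every bulb library lay above every library of the other regions, and the remaining one was the interneuron gene Calb2, at 517.6 to 579.5 CPM in the bulb and up to 742.5 CPM elsewhere.

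No gene passed the test. The quasi-likelihood test of edgeR, with Benjamini-Hochberg adjustment over 13948 genes, called 0 genes (0% at an adjusted p under 0.05) between YMP and PBS, and the smallest adjusted p was 0.0637, for Sgk1. The number at an unadjusted p under 0.05 was 718 higher in YMP (5.15%) and 515 lower (3.69%), and DESeq2, another count model, called 0 genes with 321 at an unadjusted p under 0.05. In 468 genes (3.36%) every YMP mouse was above every PBS mouse, and in 581 (4.17%) every YMP mouse was below. With 3 and 4 mice per group, the values below describe these 7 animals.

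The gene nearest the threshold was Sgk1, which encodes a kinase that controls ion channels and transporters and is a textbook glucocorticoid target. It measured 53.3, 58.1, 41.5 and 52.9 CPM in PBS mice 72, 76, 80 and 84. In the YMP mice it measured 42.9 CPM in mouse 73, 123.4 CPM in mouse 77 and 116.9 CPM in mouse 81. Mice 77 and 81 thus stood above all 4 PBS mice, mouse 73 lay within the PBS range on 26 counts, and the groups overlapped. The log2 change was 1.11 (SE 0.16). Without mouse 73 it was 1.24, and Sgk1 was then the only gene called (edgeR adjusted p 6.45e-04), 1 of 14320 genes or 0.00698%.

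The pattern of Sgk1 in these mice was not limited to the bulb. On a CPM scale common to all plasma libraries, mouse 77 was above every PBS mouse in 15 of 15 regions, mouse 81 in 14 of 15, and mouse 73 in 0 of 14. The median over regions was 259.9 CPM in mouse 77 and 262.1 CPM in mouse 81, against 84.1 CPM in mouse 73 and 82.4 to 148.0 CPM in the PBS mice. In the bulb of the diet experiment Sgk1 ran from 62.3 to 116.2 CPM in the restricted and from 50.3 to 64.3 CPM in the freely fed mice.

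**Figure D1:**
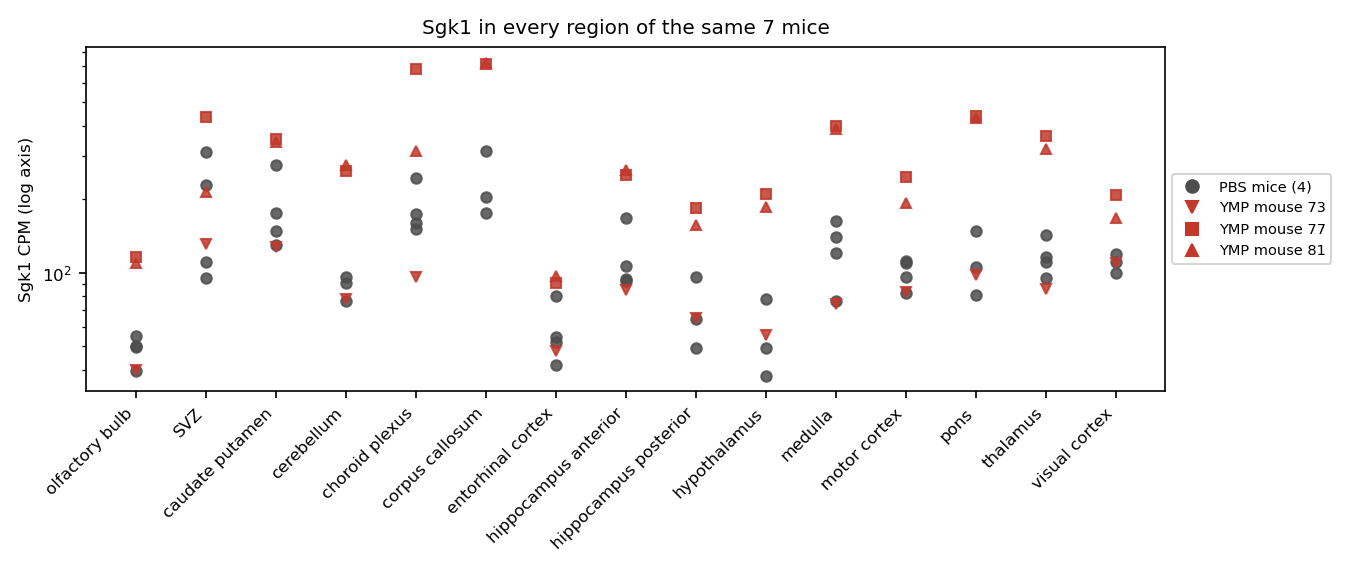
Sgk1 in every region, 1 point per mouse, on a log axis in CPM scaled over all plasma libraries, with the olfactory bulb at the left. Mice 77 and 81 lie above the PBS mice in 15 and 14 of 15 regions, and mouse 73 does so in 0 of 14.

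Sgk1 has 6 start sites in the promoter table of RefSeq (GRCm38.p6) and 1 of them holds the full palindrome of the glucocorticoid receptor, the half-sites AGAACA and TGTTCT spaced by 3 bases, searched on both strands. That window, chr10:21993640-21993939 on the plus strand, covers 250 bases before to 50 after the start and is shown because Sgk1 is the gene nearest a call. The palindrome, in capitals, occurs in 3 of 32851 promoter windows (0.00913%). A match describes these letters and shows no binding.
Sgk1: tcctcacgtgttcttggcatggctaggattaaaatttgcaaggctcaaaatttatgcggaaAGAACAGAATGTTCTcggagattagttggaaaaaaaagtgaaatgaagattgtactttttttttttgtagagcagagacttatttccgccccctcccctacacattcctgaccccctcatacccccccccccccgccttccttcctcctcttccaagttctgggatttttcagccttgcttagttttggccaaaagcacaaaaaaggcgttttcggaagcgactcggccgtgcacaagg

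The list of glucocorticoid targets held 15 genes, all tested. Of these 14 were higher in YMP, 8 of them at an unadjusted p under 0.05. Of all genes tested 49.7% were higher, and 5.15% were higher at that p. The list's median log2 change was 0.27, against -0.00073 over all genes tested. Tsc22d3, an anti-inflammatory regulator known as GILZ, measured 78.5, 88.0, 80.2 and 90.0 CPM in PBS mice 72, 76, 80 and 84. It measured 92.4, 101.9 and 117.3 CPM in YMP mice 73, 77 and 81, all above the PBS mice (log2 change 0.37, SE 0.079, edgeR adjusted p 0.358). Ddit4, an inhibitor of the growth kinase mTORC1, was 14.1 to 20.3 CPM in PBS and 21.1 to 25.2 CPM in YMP mice, without overlap. Nfkbia, the inhibitor of NF-kappaB, shared with Sgk1 high values in mice 77 and 81 (Nfkbia 55.1 and 56.3 CPM). In mouse 73 Nfkbia lay below the PBS mice, at 24.8 CPM on 15 counts against 33.2 to 43.5 CPM, while Sgk1 lay within the PBS range.

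Fkbp5, a chaperone that dampens the glucocorticoid receptor, differed from these genes. It measured 36.4, 39.1, 42.9 and 44.5 CPM in PBS mice 72, 76, 80 and 84 and 49.5, 37.5 and 41.1 CPM in YMP mice 73, 77 and 81, so the groups overlapped and the log2 change was -0.014 (SE 0.097). The sign of this value turned in 4 of the alternatives given in the closing section. Klf15, a transcription factor of metabolism that glucocorticoids are known to induce, stood outside the list. It was 25.8 to 30.7 CPM in PBS mice and 39.6, 38.9 and 36.8 CPM in YMP mice 73, 77 and 81 (log2 change 0.41, SE 0.093, edgeR adjusted p 0.358), without overlap. Per mouse, the median of the 15 targets lay 0.28 and 0.35 above the PBS mean in mice 77 and 81 and 0.25 below it in mouse 73, on the log2 scale with a pseudocount of 0.5 CPM.

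As lists, chaperone genes lay higher in YMP mice, least in mouse 73 and most in mouse 81, though 0 were called. All 13 heat shock genes tested were higher (49.7% over all genes), 8 of them at an unadjusted p under 0.05 (5.15% over all genes). The median log2 change was 0.19. Above the PBS mean lay 7, 11 and 12 of the 13 in YMP mice 73, 77 and 81. Of all 13948 genes tested 6510, 7040 and 6802 lay above it in those mice. In 4 of the 13 every YMP mouse was above every PBS mouse (3.36% over all genes). Hspb1, a small heat shock protein that holds damaged proteins in solution, measured 10.6, 12.4, 11.7 and 9.56 CPM in PBS mice 72, 76, 80 and 84. It measured 13.2, 14.0 and 29.1 CPM in YMP mice 73, 77 and 81. All 3 YMP mice lay above the PBS mice, mouse 73 on only 8 counts, and mouse 81 was far above the other YMP mice. The log2 change of 1.02 (SE 0.20, edgeR adjusted p 0.271) was 0.30 without mouse 81. Hspa8, the constitutive Hsc70 chaperone, was 1827 to 1995 CPM in PBS and 2064, 2092 and 2355 CPM in YMP mice 73, 77 and 81, without overlap. Hsp90aa1 was 704.8 to 727.0 CPM in PBS and 755.8, 774.1 and 894.8 CPM in the same YMP mice, again without overlap.

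The unfolded protein response list showed the same order of mice. All 14 members tested were higher (49.7% over all genes), 8 of them at an unadjusted p under 0.05 (5.15% over all genes). The list's median was 0.19. Above the PBS mean lay 7, 12 and 14 of the 14 in YMP mice 73, 77 and 81. In 3 of the 14 every YMP mouse was above every PBS mouse (3.36% over all genes). Hspa5 encodes BiP, the main chaperone of the endoplasmic reticulum, and measured 292.1, 319.7, 321.5 and 287.4 CPM in PBS mice 72, 76, 80 and 84. It measured 325.1, 350.1 and 428.3 CPM in YMP mice 73, 77 and 81, so each YMP mouse was above each PBS mouse and mouse 81 was highest (log2 change 0.31, SE 0.079, edgeR adjusted p 0.397). Hsp90b1, which folds secreted and membrane proteins, was 307.9 to 347.9 CPM in PBS and 356.8 to 419.0 CPM in YMP mice. Xbp1, a transcription factor of this response, was 140.9 to 152.6 CPM in PBS and 171.6, 151.4 and 194.5 CPM in YMP mice 73, 77 and 81. Mouse 77 lay within the PBS range.

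Promoters of 1 gene of each list are shown because all tested members of the lists were higher. Hspb1 (chr5:135887669-135887968, plus strand) holds 2 matches to GAA and TTC spaced by 2 bases, a pair of heat shock factor units that 7.86% of all promoter windows contain. Hspa5 (chr2:34771840-34772139, plus strand) holds the endoplasmic reticulum stress element, CCAAT and CCACG spaced by 9 bases, found in 0.119% of windows. Capitals mark the matches, both strands were searched, and further motifs and genes had been looked at before these were chosen. Of the heat shock genes 9 of 11 with a promoter in the table had the first motif, and of the unfolded protein genes 5 of 15 had the second. Hspa8 and Hsp90aa1 were not among the 9. These counts are of genes, which can have several windows, whereas the percentages are of windows. Among 14 glucocorticoid targets with a promoter there, 1, Sgk1, had the palindrome of the glucocorticoid receptor.
Hspb1: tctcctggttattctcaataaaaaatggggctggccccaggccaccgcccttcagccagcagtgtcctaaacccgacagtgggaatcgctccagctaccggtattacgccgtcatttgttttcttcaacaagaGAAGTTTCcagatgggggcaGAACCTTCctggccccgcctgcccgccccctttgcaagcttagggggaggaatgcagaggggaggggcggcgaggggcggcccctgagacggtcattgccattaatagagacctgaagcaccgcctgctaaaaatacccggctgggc
Hspa5: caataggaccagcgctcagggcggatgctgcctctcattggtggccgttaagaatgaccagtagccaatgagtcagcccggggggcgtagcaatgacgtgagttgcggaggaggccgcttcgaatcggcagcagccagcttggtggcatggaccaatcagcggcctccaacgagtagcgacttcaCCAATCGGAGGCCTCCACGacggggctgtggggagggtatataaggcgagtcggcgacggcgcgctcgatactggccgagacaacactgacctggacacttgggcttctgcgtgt

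These 2 lists depended on mouse 81. Without it, 2 heat shock genes were higher at an unadjusted p under 0.05 and the median was 0.097, against a background of 2.14% higher and 4.02% lower over the genes then tested. For the unfolded protein list 1 was higher and 1 lower, with a median of 0.090. The glucocorticoid list had 6 such genes and a median of 0.19. Without mouse 73 the numbers were 8, 9 and 10 for heat shock, unfolded protein and glucocorticoid genes, against a background of 6.66% higher and 4.73% lower. In that set of 6 libraries DESeq2 called 19 genes, 0.133% of the 14320 entered, an alternative added after the data were seen. DESeq2 adjusts only over genes that pass its own filter on mean count, so its adjustment covered fewer genes than were entered. The 19 included Hspa5, Hspa8, Hsp90aa1 and Hsp90ab1 as higher and the synaptic kinase gene Camk2b as lower. Sgk1, the only gene that edgeR called in these 6 libraries, was not among the 19.

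Genes of protein synthesis and nuclear-encoded genes of the respiratory chain were higher by small amounts, chiefly in mouse 81. All 80 cytosolic ribosomal protein genes tested were higher, 41 of them at an unadjusted p under 0.05, and the median log2 change was 0.17. The shares over all genes tested were 49.7% higher and 5.15% higher at that p. Of 77 nuclear-encoded genes of the respiratory chain 72 were higher, 28 of them at that p, and of 38 proteasome genes 34 were higher, 7 of them at that p. The 13 protein-coding genes of the mitochondrial genome, which encode other subunits of the chain and of ATP synthase, did not share this: 6 were higher and 7 lower, with a median of -0.0087. Per mouse, the ribosomal median lay 0.29 above the PBS mean in mouse 81, 0.071 above it in mouse 77 and 0.044 below it in mouse 73, while single PBS mice reached 0.091. Without mouse 81, 3 ribosomal, 3 respiratory and 0 proteasome genes were higher at an unadjusted p under 0.05, against 2.14% of all genes then tested. Tomm7, Timm10 and Ostc, small subunits of the import machineries of mitochondria and of the oligosaccharyltransferase, were among the 12 higher genes of smallest p whose groups did not overlap.

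**Figure D2:**
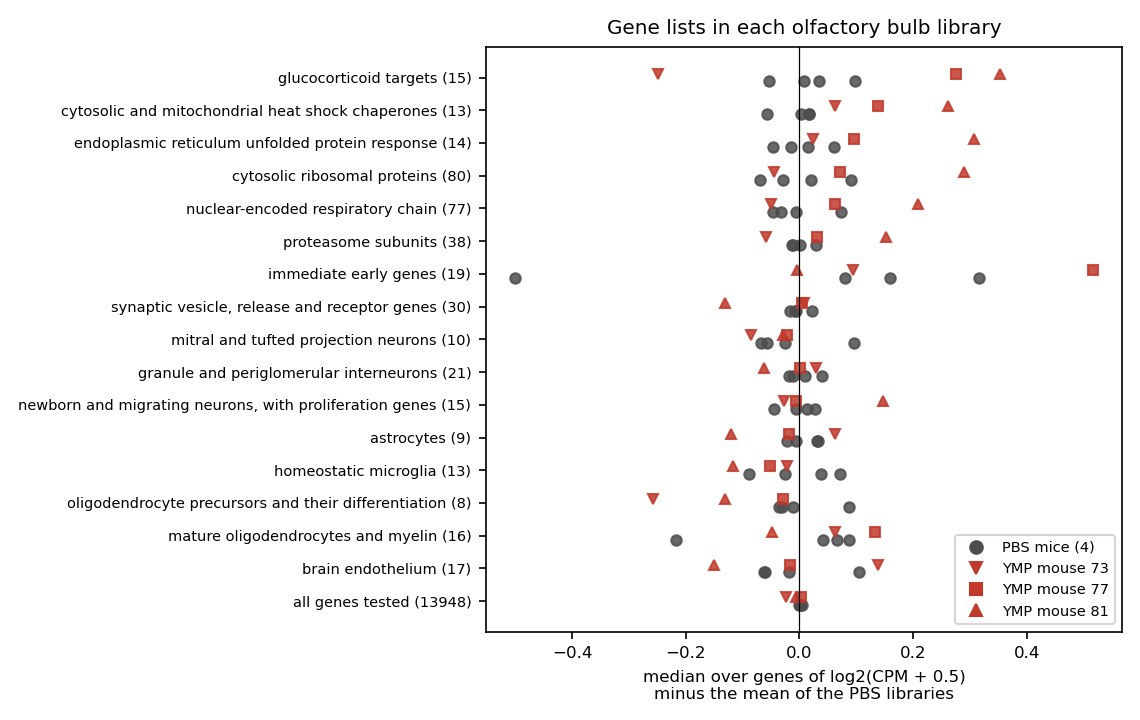
Median over the tested members of each list (number in brackets) of log2(CPM + 0.5) minus the mean of the PBS libraries, 1 symbol per library. In the chaperone, ribosome and respiratory lists mouse 81 lies farthest to the right, and in the glucocorticoid list mouse 73 lies left of every PBS mouse.

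The library of mouse 81 stood apart in transcripts of the nose, which adjoins the bulb. A list of 23 nasal mucosa genes (secreted defence proteins and detoxifying enzymes of glands and supporting cells), chosen after its values were seen, summed to 348.8, 267.4, 183.5 and 85 CPM in PBS mice 72, 76, 80 and 84. It summed to 13.2 CPM in mouse 73, 89.3 CPM in mouse 77 and 2390 CPM in mouse 81. Bpifa1, a secreted airway protein, was 484.3 CPM in mouse 81, 0 in mouse 73 and at most 55.5 CPM elsewhere. Olfactory sensory neuron genes summed to 866.1 CPM in mouse 81 and 449.3 to 638.5 CPM in the other libraries. Red cell and neutrophil genes summed to 546.2 CPM in mouse 81 and 45.9 to 213.5 CPM elsewhere. The part of these transcripts in the other results of mouse 81 was not tested.

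**Figure D3:**
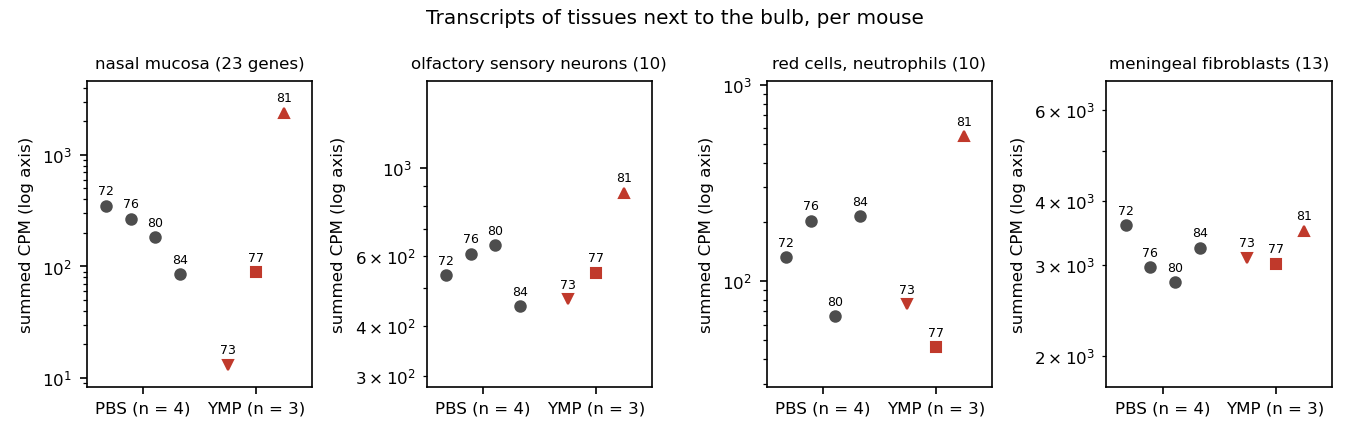
Summed CPM of 4 gene lists in each bulb library, on log axes, with mouse numbers beside the points. Mouse 81 reaches 2390 CPM for nasal mucosa and 546.2 CPM for red cells and neutrophils, above every other library, and the groups overlap for meningeal fibroblasts.

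The number of called genes turned on which YMP mouse was left out. Without mouse 77 the test called 194 of 14291 genes (1.36%), 170 of them higher, and in 160 of those 170 mouse 81 had the highest value of all 7 libraries. In 65 of the 170 mouse 81 was at least 3 times every other library. Over the 13948 genes tested with all 7 libraries, mouse 81 was highest in 2398 and at least 3 times every other library in 48. A call without mouse 77 rests on mice 73 and 81, so a high value in mouse 81 is partly built into the 170. The 170 held 18 genes of the nasal mucosa list, which was chosen after its values were seen, so this overlap is no independent support. Among the genes of smallest adjusted p were Reg3g, Prss33, Bpifb6, Cyp2f2, Ces1d and Fetub, and the mucin gene Muc2 tied with the last 3 of these (edgeR adjusted p 8.64e-05). Reg3g, an antimicrobial lectin of mucosal surfaces, had 935 counts in mouse 81, 0 in mouse 73, 3 in mouse 77 and at most 11 in the PBS mice. Without mouse 81 the test called 12 of 13673 genes (0.0878%), 2 of them higher (Sgk1 and Ttr), and in the 10 lower genes mouse 77 had the lowest value of all 7 libraries. Those calls rest on mice 73 and 77, so a low value in mouse 77 is likewise partly built in. Ttr, the transthyretin gene of the choroid plexus, had 0, 33 and 56 counts in YMP mice 73, 77 and 81 and 6, 2, 9 and 3 counts in PBS mice 72, 76, 80 and 84.

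Several genes of higher and lower level separated the groups in all 3 YMP mice, though without passing the test. They were named for a small p and groups without overlap, out of 383 genes that met the naming rule given below. Higher in every YMP mouse were Sik2, a kinase of the salt-inducible family, at 36.7 to 39.7 CPM in PBS and 48.1 to 51.2 CPM in YMP, and Tppp3, a tubulin-binding protein, at 12.4 to 16.4 and 20.8 to 21.6 CPM. Rnf7, a subunit of cullin ubiquitin ligases, was 104.8 to 111.0 CPM in PBS and 120.5 to 132.9 CPM in YMP. Fabp3, a fatty acid carrier, was 45.5 to 48.7 and 54.3 to 59.0 CPM. For Sik2, Tppp3 and Klf15 the 3 YMP values were close together, but those of mouse 73 rest on 31, 13 and 24 counts.

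The lower genes included Casp9, the initiator caspase of the mitochondrial death pathway. It measured 33.6, 31.0, 33.1 and 32.4 CPM in PBS mice 72, 76, 80 and 84 and 13.2, 21.6 and 23.2 CPM in YMP mice 73, 77 and 81. Every YMP mouse was below every PBS mouse (log2 change -0.56, SE 0.11, edgeR adjusted p 0.271), with 8 counts behind the lowest value. This order was met in 1 of the 15 regions, the bulb. Casp9 was named for this order in the bulb, so the count does not show a change particular to the bulb. In a fit of all 98 plasma libraries together Casp9 was the only gene called for the bulb (edgeR adjusted p 0.0294, 1 of 15768 genes or 0.00634%), but that fit takes the libraries of 7 mice as separate replicates. With the mouse as replicate block (limma) the call of Casp9 was lost (adjusted p 0.0621), and over all alternatives its adjusted p ran from 0.0183 to 1.0. The blocked fit called 5 other genes (0.0317%), Bpifa1, Bpifb4, Bpifb6 and Reg3g as higher and Samd9l as lower. In each of the 5 mouse 81 was the extreme library, as for Bpifb6 at 81.3 CPM against at most 8.07 CPM in the others. Apcdd1, an inhibitor of Wnt signalling, was 38.8 to 44.6 CPM in PBS and 24.8, 33.0 and 26.3 CPM in YMP mice 73, 77 and 81. Grm4, a presynaptic glutamate receptor that inhibits release, was 76.2 to 79.7 CPM in PBS and 60.7 to 65.6 CPM in YMP. Ulk1, a kinase that starts autophagy, was 49.4 to 54.1 CPM in PBS and 47.9, 31.4 and 42.0 CPM in YMP mice 73, 77 and 81.

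**Figure D4:**
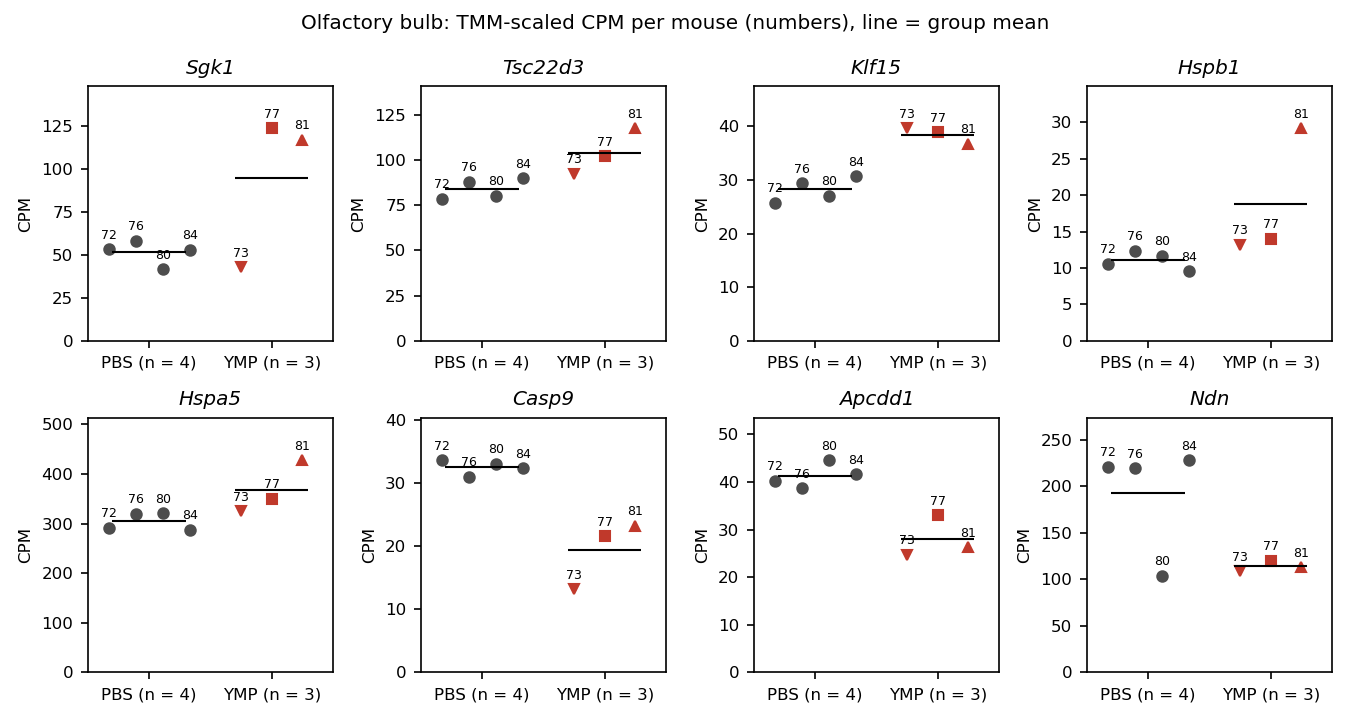
CPM of 8 genes in each bulb library, with mouse numbers, axes from 0 and the group mean as a line. Sgk1 overlaps through mouse 73, Hspb1 is highest in mouse 81, Casp9 and Apcdd1 are lower in all 3 YMP mice, and Ndn is low in the YMP mice and in PBS mouse 80.

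In the cell type lists of the bulb few genes reached an unadjusted p under 0.05 and 0 were called. Over all genes tested 50.3% were lower and 49.7% higher, and 3.69% were lower and 5.15% higher at that p, so 1 gene in a list of 10 or 21 is near the background. Fewer cells of a type and less RNA per cell cannot be told apart in bulk tissue. Of 10 mitral and tufted genes 1, the transcription factor Eomes, was lower at an unadjusted p under 0.05, at 113.9 to 124.7 CPM in PBS and 101.9 to 104.1 CPM in YMP mice. Of 21 interneuron genes 1 was lower, and the dopaminergic marker Th was 315.8 to 370.9 CPM in PBS and 331.7 to 361.6 CPM in YMP, fully overlapping. Dcx, a marker of migrating newborn neurons, was 155.1 to 172.0 CPM in PBS and 143.6 to 154.2 CPM in YMP, lower in each YMP mouse (edgeR unadjusted p 0.059). The rest of its list, newborn neurons with proliferation genes, mostly lay the other way. Of its 15 tested genes 11 were higher, 2 of them at an unadjusted p under 0.05. The median was 0.053, and 0 genes were lower at that p. The 2 were the tubulin gene Tubb2b (log2 change 0.20) and the surface protein gene Cd24a (0.33). Cd24a was 16.5, 26.9 and 40.9 CPM in YMP mice 73, 77 and 81 and 24.5 to 28.0 CPM in PBS. For Cd24a mouse 81 alone lay above the PBS mice. Without mouse 81 the median was -0.028, with 1 gene higher and 1 lower at that p. Of 13 homeostatic microglia genes 11 were lower, 2 of them at an unadjusted p under 0.05, and the list's median was -0.10. P2ry12, a purine receptor of microglia, was 48.9 to 53.9 CPM in PBS and 38.0 to 44.2 CPM in YMP mice. Of 17 endothelial genes 3 were lower and 1 higher at that p. Of 16 myelin genes 9 were higher, 3 of them at that p, and 7 were lower, with a median of 0.046. Mal, a myelin membrane protein, was 76.3 to 100.9 CPM in PBS and 105.8 to 108.9 CPM in YMP. Of 30 synaptic genes 24 were lower, 2 of them at an unadjusted p under 0.05, with a median of -0.044. This rested on mouse 81: above the PBS mean lay 15, 16 and 2 of the 30 in YMP mice 73, 77 and 81. Without mouse 81 the synaptic median was 0.013. Of 9 astrocyte genes 0 reached an unadjusted p under 0.05.

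Whether a difference was particular to the bulb was tested within mice. For each mouse the mean log2 CPM of 7 other regions (motor cortex, caudate putamen, entorhinal cortex, anterior hippocampus, medulla, SVZ and thalamus) was subtracted from that of the bulb, and limma compared these differences between the groups. Of 15246 genes 0 were called (0%) and 1196 (7.84%) had an unadjusted p under 0.05, with the smallest adjusted p at 0.614. For Sgk1 the difference was 0.085 (limma unadjusted p 0.413), with a mean effect of 0.65 in the other regions. For Casp9 the difference was -0.68 (limma unadjusted p 0.00666) and the effect in the other regions was -0.11. No gene can therefore be called particular to the bulb from these libraries.

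Ndn, Samd9l and Rbm12b2, chosen after their values were seen, had per-mouse patterns that were also seen outside the bulb. Ndn, the necdin gene of postmitotic neurons, was 219.9 to 228.5 CPM in PBS mice 72, 76 and 84 and 103.8 CPM in PBS mouse 80, with 108.9 to 120.1 CPM in the YMP mice. Over all regions its median was 318.2 to 381.6 CPM in those 3 PBS mice and 187.8 to 225.8 CPM in the other 4 mice. Samd9l and Rbm12b2 were at 0.087 and 0.43 CPM in the bulb of mouse 81 and at 13.3 to 16.5 CPM in the other bulbs. In mouse 81 they stayed at or below 0.28 and 0.58 CPM in every region measured.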

How the data were processed

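RNA was measured in olfactory bulbs of 7 male mice, with libraries made by Smart-Seq2 and Nextera XT and without strand, per the labels. The deposited counts are whole-number read counts per gene, made by the authors, in 1 table of 21076 rows and 238 libraries with 0 columns unused. Trim Galore 0.3.7, STAR 2.5.3a, DESeq2 and the build GRCm38 are named in the submitters' processing notes. How reads were assigned to genes is not given in the sources used here.

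Genes were filtered (filterByExpr, minimum count 10, minimum total 15), scaled by TMM and tested by edgeR 4.0.16 in R 4.3.3 on all 7 libraries without covariates. SEs are the log2 change divided by the root of the F statistic. CPM uses TMM-scaled library sizes. The within-mouse difference was tested with limma 3.58.1 on log2 CPM (prior count 2). Its variance trend was first set against the mean difference. That version was replaced after its counts had been seen (0 called, 1106 at an unadjusted p under 0.05), because on simulated data it called 0 of 133 changes of 2-fold or more, and the version used gave 0 and 1196. On data simulated for these comparisons (13912 genes), edgeR called 100% and limma 97% of 133 changes of 2-fold or more. The simulation gave every gene the same spread, changed only genes above a minimum level and held no library that stood apart. Those shares therefore do not carry over to the real libraries, where Sgk1 at a log2 change of 1.11 was not called.

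A mouse number stands for 1 animal across its regions, so it pairs regions and not treatments. Deviations from group means correlated at 0.023 between the bulb and other regions of a mouse (49 pairs) and at -0.0087 between mice of a group (126 pairs). No pair of libraries was counted as 1. Whether the mice of a group were injected or sampled apart is not in the labels.

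Named genes were those called (at most 10), the 12 higher and 12 lower of smallest p with a mean of at least 5 CPM, an unadjusted p under 0.05 with and without mouse 73 and groups that did not overlap, up to 4 per list, defining list members, the 6 of smallest adjusted p in the fit without 1 mouse that called most genes (ties by p), and at most 6 called in the within-mouse test. Predicted genes and pseudogenes were counted but not named. Members and lists were chosen with earlier results of these data known. Alternatives were each mouse left out, DESeq2 1.42.0, RLE scaling, other filters, quality weights and all plasma libraries.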

Additional observations from a re-analysis of the deposited data

Results flagged for a closer look

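In 140 groups of 4 PBS values (library measures, named genes and list sums), 9 held a value whose gap to its neighbour exceeded Dixon's 95% limit, and chance flags about 7. Ndn stood apart in PBS mouse 80 at 104 CPM, against 220 to 228 CPM in the others, and Ndn was the only gene called without that mouse (edgeR adjusted p 7.89e-06). C4b was 103 CPM and Cnga4 3.88 CPM in PBS mouse 80, against 87.6 to 87.7 CPM and 1.99 to 2.17 CPM. In PBS mouse 76 Eomes was 125 CPM (others 114 to 116 CPM), Pdgfrb 26.3 CPM (21.7 to 22.2 CPM) and the myelin list 4280 CPM (5000 to 5050 CPM). In PBS mouse 72 Tek was 17.0 CPM (13 to 13.6 CPM) and the synapse list 16400 CPM (15600 to 15700 CPM). Kdr was 17.2 CPM in PBS mouse 84, against 21.5 to 22.2 CPM. The causes were not tested.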

How the results depend on the processing

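Against 0 genes in the bulb comparison, leaving out each mouse gave 0 to 194 (1 without PBS mouse 80 or YMP mouse 73, 12 without YMP mouse 81, 194 without YMP mouse 77). With no filter on low counts 55 genes were called, and in 45 of them mouse 81 was at least 3 times every other library. Requiring 10 counts in every library gave 1 (Sgk1), all plasma libraries 1 (Casp9), and all plasma libraries with mouse as replicate block 5. Chosen after seeing the data, DESeq2 without YMP mouse 73 gave 19 and no filter without it 152. DESeq2, RLE scaling and quality weights gave 0, and quality weights gave mouse 81 a weight of 0.41 against 1.0 to 1.35 for the others. The within-mouse test gave 0 under every alternative run, with or without the replicate block (1196 and 699 genes at an unadjusted p under 0.05), and the block changed no call there. With 1 mouse left out, the log2 changes of 18 named genes turned negative without YMP mouse 81 and with no other mouse left out. They ran from -1.18 to 3.83 for Bpifb6, -1.65 to 2.94 for Cyp2f2, -0.996 to 3.21 for Ces1d, -0.80 to 2.91 for Fetub, -1.005 to 3.38 for Bpifb4, -0.62 to 4.90 for Bpifa1, -0.65 to 2.60 for Muc2, -0.12 to 0.50 for Cd24a, -0.41 to 1.935 for Cnga2, -1.49 to 2.07 for Cnga4, -0.14 to 0.34 for Omp, -0.98 to 2.08 for Lcn2, -0.0039 to 0.58 for Mgp, -0.83 to 1.19 for Lum, -1.77 to 2.26 for S100a9, -1.54 to 2.17 for S100a8, -2.50 to 2.13 for Camp and -1.26 to 1.79 for Ngp. With quality weights Cnga4 was -0.066 and Camp -0.32. Values near 0 also turned: with 1 mouse left out they ran from -0.059 to 0.033 for Fkbp5, -0.0096 to 0.072 for Th and -0.094 to 0.012 for Mbp. Fkbp5 was 0.0011 with all plasma libraries and Mbp 0.0098 with quality weights. The causes were not tested. Depth limits mouse 73, where 3 counts are 4.95 CPM.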
